A study of Mus musculus with 6 samples.

Results

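The genes described here are 41 members of the actin cytoskeleton and of the transcriptional circuit that reads its state: serum response factor (Srf) and its coactivators, actins, tropomyosins, calponin-family proteins, non-muscle myosin chains, crosslinkers, proteins of actin turnover, and signalling proteins that act on filaments. They were taken by gene name from the deposited table of 39174 rows, and all 41 were found. Only genes averaging 1 FPKM or more across all libraries were tested, which left 36 members among 11957 genes. The 5 below that level were Cnn1, Fhl1, Lcp1, Myh10 and Mylk.

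Serum response factor binds DNA at CArG boxes and, with the myocardin-related coactivators Mkl1 and Mkl2 (also called Mrtfa and Mrtfb), switches on genes of actin, of actin-binding proteins and Srf itself. Both coactivators bind actin monomers and are held out of the nucleus by them. When monomers are driven into filaments, the coactivators are released, so transcription follows the balance of monomer and filament. Osteocytes are the cells embedded in bone matrix, and fluid shear on them is known to act on the cytoskeleton.

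RNA was sequenced from 3 flow and 3 non-flow control libraries of MLO-Y4, an osteocyte-like mouse line derived from a transgenic mouse carrying large T antigen under the osteocalcin promoter. Flow cells, on glass slides coated with type I collagen, were exposed for 2 h to oscillating flow with a shear stress of 10 dyn/cm² and collected after fresh medium and a further 2 h without flow. Sham handling alongside gave the non-flow controls, and the replicates come from separate days. A single line was used and a single time was sampled, so the libraries show neither other osteocytes nor the hours during flow.

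Values are FPKM, fragments normalised for transcript length and library depth. Estimated depth was 11020000, 5760000 and 19230000 reads in flow libraries 1 to 3, against 17910000 to 19010000 reads in the controls. Flow libraries 1 and 2 also stood apart in base composition. Across 10460 tested protein-coding genes, a gene's deviation from its mean over the 6 libraries had a Spearman correlation with transcript GC content of −0.56, −0.56 and 0.41 in flow libraries 1 to 3, against 0.38 to 0.40 in the controls. For the members the results turn on, values are therefore also given without flow library 3, with flow library 3 alone, or after removal of each library's trend with GC content. The osteocyte-lineage markers Gja1 and Pdpn were at 443 to 458 and 391 to 417 FPKM in flow libraries. Controls had 414 to 503 and 357 to 420.4 FPKM. Sost and Mepe were listed at 0 in all 6. Of 12 such markers 8 were tested and 0 called. Of the tested ones, 6 were lower and 2 higher with flow, with a median log2 difference between flow and control of −0.25. Col1a2 had 96.2, 92.0 and 97.4 FPKM with flow and 123, 111 and 109 FPKM without, every flow library below every control. Of the smooth muscle markers, Myocd was listed at 0 in all 6 and Myh11 did not exceed 0.0173 FPKM. Smtn, of the same list, was at 17.4 to 23.9 FPKM in flow libraries and 22.3 to 27.4 FPKM in controls.

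The promoters of the members were read for CArG boxes, the sequence that serum response factor binds. The members were chosen by gene name, and the choice included genes known to be regulated by Srf. How often they hold a box is therefore not independent of that choice. RefSeq windows of 250 bases before an annotated start were found for 36 of the 41 members. A CArG box, written as CC, then 6 bases each A or T, then GG, was searched, a pattern that reads alike on both strands. It stood in windows of 8 members: Srf, Fhl1, Fhl2, Acta1, Actg1, Cnn2, Myl6 and Myl9. Counted by window, 9 of 48 member windows held one, against 482 of all 32851 windows (1.47%). A match describes these letters only, and no match in this window says nothing about regulation of the gene. The stretches around the boxes of 7 of these members are shown because they mark which of the genes below carry the Srf recognition letters next to their start. They are in build GRCm38.p6, 5′ to 3′ on the gene's strand, with the boxes in capitals. Their positions are chr17:46556185-46556274 (minus strand) for Srf, chr1:43163962-43164022 (minus) for Fhl2, chr8:123894809-123894878 (minus) for Acta1, chr11:120348546-120348615 (minus) for Actg1, chr10:79988514-79988583 (plus) for Cnn2, chr10:128493020-128493089 (minus) for Myl6 and chr2:156775273-156775342 (plus) for Myl9.
Srf: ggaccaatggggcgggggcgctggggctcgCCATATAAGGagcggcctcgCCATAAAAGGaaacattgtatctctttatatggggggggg
Fhl2: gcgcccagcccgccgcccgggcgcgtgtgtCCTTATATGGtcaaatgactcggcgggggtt
Acta1: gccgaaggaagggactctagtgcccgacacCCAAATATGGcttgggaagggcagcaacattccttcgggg
Actg1: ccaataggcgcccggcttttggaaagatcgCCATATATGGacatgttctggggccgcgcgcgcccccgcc
Cnn2: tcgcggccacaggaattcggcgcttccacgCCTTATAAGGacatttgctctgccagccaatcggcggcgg
Myl6: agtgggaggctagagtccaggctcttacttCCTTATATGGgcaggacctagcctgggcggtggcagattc
Myl9: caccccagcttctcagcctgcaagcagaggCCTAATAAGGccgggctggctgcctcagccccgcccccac

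The Srf promoter held 2 boxes, the first base of each lying 82 and 62 bases before the start. The boxes of Acta1, Actg1, Cnn2 and Myl6 lay within 90 bases of the start, and that of Myl9 began 161 bases before it. Fhl2 had a box at each of 2 annotated starts. No window was at hand for Actb, Actg2, Tagln, Rock1 or Diap1.

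**Figure D1:**
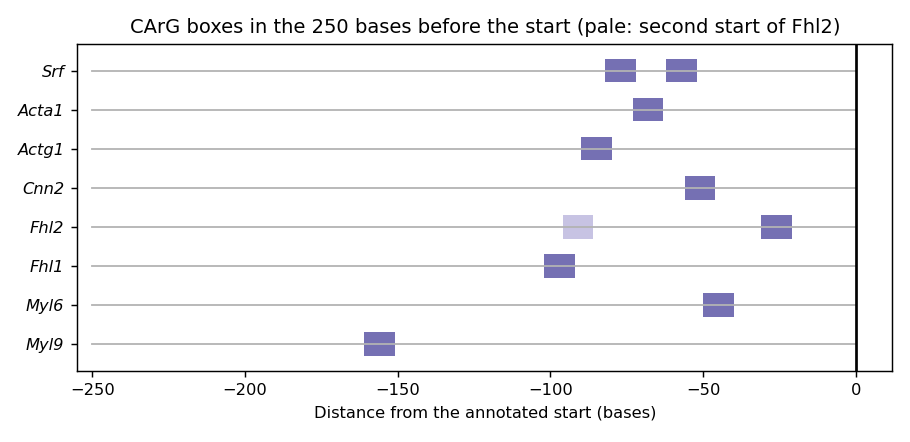
Position of CArG boxes (purple blocks) in the 250 bases before the annotated start of the 8 members that held one; the horizontal axis is the distance from the start in bases, and the pale block is the box at the other annotated start of Fhl2. Most boxes lie within 102 bases of the start, while that of Myl9 begins 161 bases before it, and Srf alone has 2 boxes before 1 start.

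The members spanned from among the most abundant transcripts to the limit of detection. In controls, 3 members averaged at least 1000 FPKM (Actb, Actg1 and Pfn1), 17 lay between 100 and 1000, 10 between 10 and 100, 6 between 1 and 10, and 5 below 1. By control mean, Actb was number 7, Actg1 number 23, Pfn1 number 61 and Cfl1 number 83 among the 10460 tested protein-coding genes, and Srf was number 3056. Together the members took up 1.26%, 1.38% and 1.73% of all FPKM in flow libraries 1 to 3, against 1.74%, 1.73% and 1.74% in controls 1 to 3. The share was thus lower in flow libraries 1 and 2, and just under the controls in flow library 3.

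No member passed the test between flow and non-flow control. With limma on log2(FPKM + 1) and Benjamini-Hochberg adjustment over all tested genes, 0 of 36 members were called at 0.05, against 2 of all 11957 genes (0.0167%), and the smallest adjusted p of a member was 0.559. An unadjusted limma p under 0.05 was found for 6 members on the lower side (Acta1, Actb, Cnn2, Tpm3, Tpm4 and Actn4), which is 16.7% of the members against 4.82% of all genes. It was found for 1 on the higher side, Rock1, which is 2.78% against 3.70%. The count on the lower side was 12 without flow library 3 (against 13.1% of all genes), 2 without flow library 1, 3 without flow library 2, and 1, 2 and 3 without controls 1, 2 and 3. Over all genes those 5 fits gave 2.92% and 2.73% without flow libraries 1 and 2, and 2.48%, 2.95% and 3.32% without controls 1, 2 and 3. The count on the higher side was 5 without flow library 3 (against 13.3%), 1 without control 1, and 0 when any of the other libraries was left out. Over all genes, 14 (0.117%) were called without flow library 3, 3 without flow library 1, 12 without flow library 2, and 10, 12 and 11 without controls 1, 2 and 3, each time with 0 members among them. The members' median log2 difference was −0.08, against −0.01 over all genes, and 23 of 36 lay below 0, against 51.7% of all genes.

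Library by library, flow libraries 1 and 2 resembled each other and flow library 3 resembled the controls for most members. In 14 of 36 members (38.9%, against 22.8% of all genes) flow libraries 1 and 2 were both below every control, and in 6 (16.7%, against 22.8%) both were above every control. Flow library 3 lay within the range of the controls for 26 of 36 members (72.2%), against 50.9% of all genes. It lay nearer to the control mean than both other flow libraries for 27 of 36 members (75.0%), against 53.8% of all genes. All 3 flow libraries were below all controls for 5 members, Actb, Tpm3, Tpm4, Actn4 and Cfl1 (13.9%, against 8.00% of all genes), and above all controls for 0 of the 36, against 7.12%. The 5 became 14 without flow library 3 (against 22.8% of all genes) and 11 without control 3 (against 13.3%). The 0 became 6 without flow library 3 (against 22.8%), 3 without flow library 2 (against 10.3%) and 1 without any one of the controls (against 10.9% to 11.2%).

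**Figure D2:**
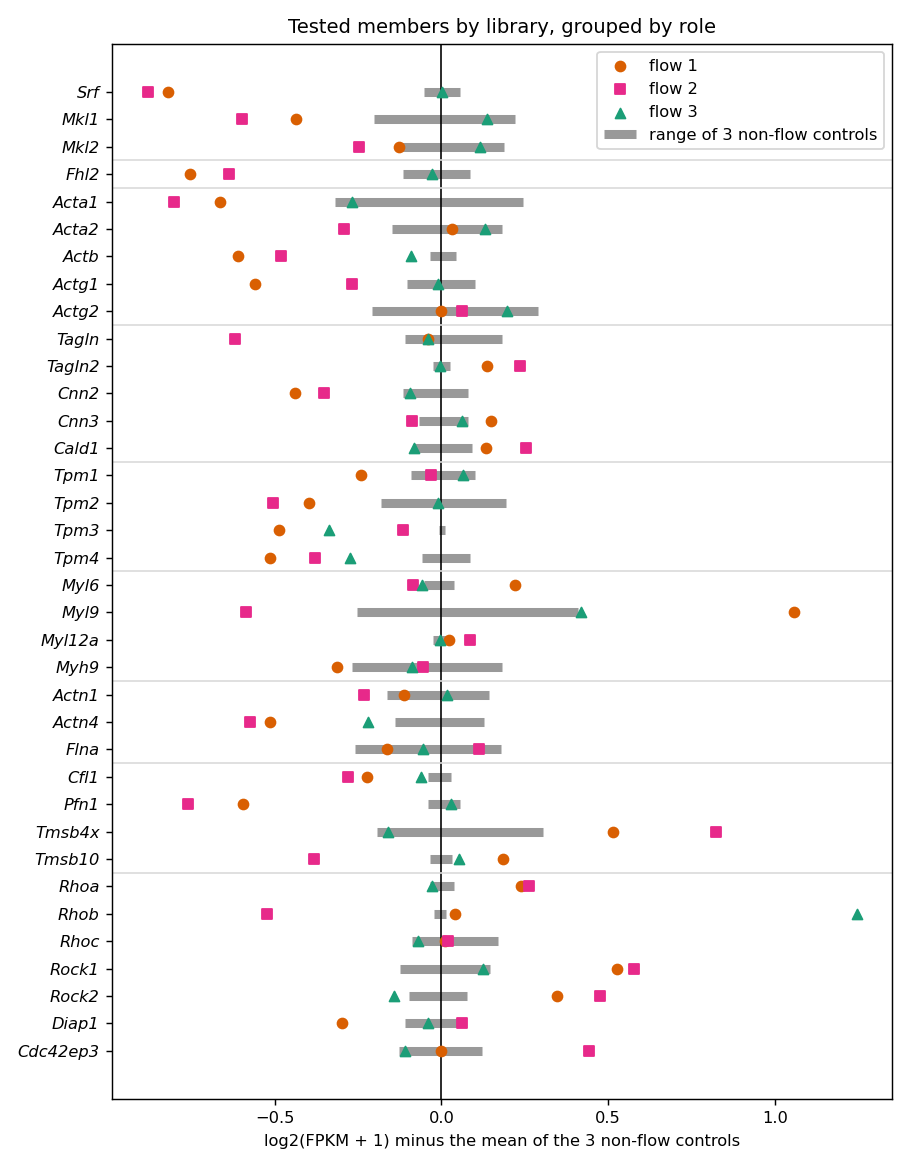
Each of the 36 tested members as log2(FPKM + 1) minus the mean of the 3 non-flow controls: orange circles, pink squares and green triangles are flow libraries 1, 2 and 3, grey bars span the 3 controls, and lines separate the roles. For Srf, Fhl2, Actg1, Pfn1 and Cnn2 flow libraries 1 and 2 sit left of the controls and flow library 3 inside them, for Tpm3, Tpm4 and Actn4 all 3 flow libraries sit left, and for Rhob flow library 3 sits far to the right.

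Among the transcription factor and its coactivators, Srf had the sharpest split. Srf (chr17:46548329-46556175, minus strand of mm10) had 19.8, 19 and 35.8 FPKM in flow libraries 1 to 3, against 37.2, 35.7 and 34.5 FPKM in controls 1 to 3. Flow libraries 1 and 2 were far below every control, whereas flow library 3 lay inside the controls. The means were 24.9 ± 9.48 FPKM with flow and 35.8 ± 1.37 FPKM without (SD, n = 3 each). Srf's log2 difference was −0.57 (SE 0.24; limma adjusted p = 0.559). Without flow library 3 the log2 difference was −0.85 (SE 0.07; adjusted p = 0.0678, the smallest of any member), and with flow library 3 alone it was 0.00. Its transcript has 60.7% GC, and once the GC trend was taken out the log2 difference was −0.33 (SE 0.14; limma adjusted p = 0.752) with all libraries and −0.49 (SE 0.09; adjusted p = 0.199) without flow library 3.

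The coactivators were lower in abundance than Srf. Mkl1 had 11.2, 9.94 and 17.2 FPKM in flow libraries, against 15.3, 13.4 and 18.3 FPKM in controls. Flow libraries 1 and 2 were again below every control, by a narrower margin than for Srf, and flow library 3 lay among the controls. Its log2 difference was −0.30 (SE 0.22; limma adjusted p = 0.627), 0.14 with flow library 3 alone, and −0.09 once the GC trend was removed. Mkl2 had 5.80, 5.26 and 7.05 FPKM with flow, against 6.11, 5.81 and 7.46 FPKM without, a log2 difference of −0.09 (SE 0.15; adjusted p = 0.825). For Mkl2 the distance between flow and control libraries was smaller than the spread within each group.

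The LIM-domain proteins Fhl1 and Fhl2, of which Fhl2 is a known Srf target and binding partner, lay on opposite sides. Fhl2 had 2.40, 2.68 and 4.61 FPKM in flow libraries, against 4.83, 5.07 and 4.28 FPKM in controls. As with Srf, flow libraries 1 and 2 were below all controls and flow library 3 was between them. The log2 difference of Fhl2 was −0.47 (SE 0.22; limma adjusted p = 0.559), −0.69 (SE 0.12; adjusted p = 0.078) without flow library 3 and −0.03 with flow library 3 alone. With the GC trend removed it was −0.38, and −0.56 (SE 0.15; limma adjusted p = 0.260) without flow library 3. Fhl1, too low to enter the test, had 0.633, 0.583 and 0.780 FPKM with flow, against 0.328, 0.400 and 0.269 FPKM without. All 3 flow libraries lay above all controls and above the value of 3 reads, which was at most 0.203 FPKM for this gene. In a fit without the filter on low values the log2 difference of Fhl1 was 0.32 (SE 0.08; limma adjusted p = 0.671). In the other deposited table the groups overlapped, with 0.552, 0.398 and 1.62 FPKM in the 3 flow columns, against 0, 1.56 and 0.101 FPKM in controls.

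Actins make up the filaments themselves, and the cytoplasmic isoforms Actb and Actg1 supplied almost all actin FPKM. Actb (beta-actin, chr5:142903115-142906754, minus strand) had 2541, 2775 and 3642 FPKM in flow libraries, against 3999, 3781 and 3851 FPKM in controls. All flow libraries were below all controls, flow library 3 by a small margin. The means were 2986 ± 579.6 FPKM with flow and 3877 ± 111 FPKM without (SD, n = 3 each), and the log2 difference was −0.39 (SE 0.15; limma adjusted p = 0.559). It was −0.55 (adjusted p = 0.078) without flow library 3, −0.09 with flow library 3 alone, and −0.26 after removal of the GC trend. The sign of Actb was the same under every scaling tried. In the other deposited table, however, the groups overlapped. There the 3 flow columns had 2247, 2410 and 3504 FPKM, against 3258, 3406 and 3544 FPKM in controls (log2 difference −0.35, SE 0.18).

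Actg1 (gamma-actin, chr11:120345690-120348542, minus strand), whose promoter has a CArG box, had 1276, 1561 and 1868 FPKM in flow libraries, against 2019.6, 1882 and 1753 FPKM in controls. Flow libraries 1 and 2 were below the controls and flow library 3 was inside them. Its log2 difference was −0.28 (SE 0.15; limma adjusted p = 0.560), −0.41 (adjusted p = 0.137) without flow library 3, and −0.11 after removal of the GC trend. Of its 50-base stretches, 56.7% also occur in other annotated genes, among them pseudogenes, and 14.2% of those of Actb do, so the division of reads among copies is uncertain. The balance of the isoforms was similar in both groups: Actb was 66.1%, 63.6% and 65.7% of summed actin FPKM in flow libraries and 66.1%, 66.4% and 68.3% in controls, and Actg1 supplied 33.2%, 35.8% and 33.7% in flow libraries and 33.4%, 33.0% and 31.1% in controls. Summed actin was 3846, 4361 and 5543 FPKM in flow libraries, against 6049.7, 5697 and 5638 FPKM in controls. These unscaled sums were lower in all 3 flow libraries. The FPKM of all genes summed to 718762 in flow library 3 and 739714 in control 2. As a share of that sum, actin in flow library 3 was not below control 2.

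The muscle actins were minor. Acta1 (skeletal muscle alpha-actin) had 6.77, 6.06 and 9.23 FPKM in flow libraries, against 12, 13.6 and 8.87 FPKM in controls. Flow library 3 overlapped the controls at their lower end. The log2 difference of Acta1 was −0.58 (SE 0.21; limma adjusted p = 0.559), −0.27 with flow library 3 alone and −0.38 after removal of the GC trend. Other genes of skeletal muscle were also low in flow libraries 1 and 2: troponin T Tnnt3 was at 0.338, 0 and 2.46 FPKM with flow and 4.03, 2.94 and 1.48 FPKM without. Troponin I Tnni2 was listed at 0, 0 and 1.86 FPKM with flow and 2.2, 2.24 and 0.564 FPKM without. Leaving out Acta1 itself, the 6 other skeletal muscle markers, of which 2 were tested and 0 called, summed to 0.393, 0 and 5.11 FPKM in flow libraries and 7.45, 6.77 and 2.40 FPKM in controls. The myogenic regulators Myod1 and Myog did not exceed 0.0548 and 0.0437 FPKM. The part of these genes in the result for Acta1 was not tested, and in bulk RNA fewer cells of a type and less RNA per cell cannot be told apart. Acta2 (smooth muscle alpha-actin) had 21.1, 16.6 and 22.6 FPKM with flow and 18.4, 20.1 and 23.4 FPKM without, and the groups overlapped (log2 difference −0.04, SE 0.15, adjusted p = 0.917). Actg2 stayed near 1 FPKM, between 1.02 and 1.31 with flow and between 0.745 and 1.46 without.

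**Figure D3:**
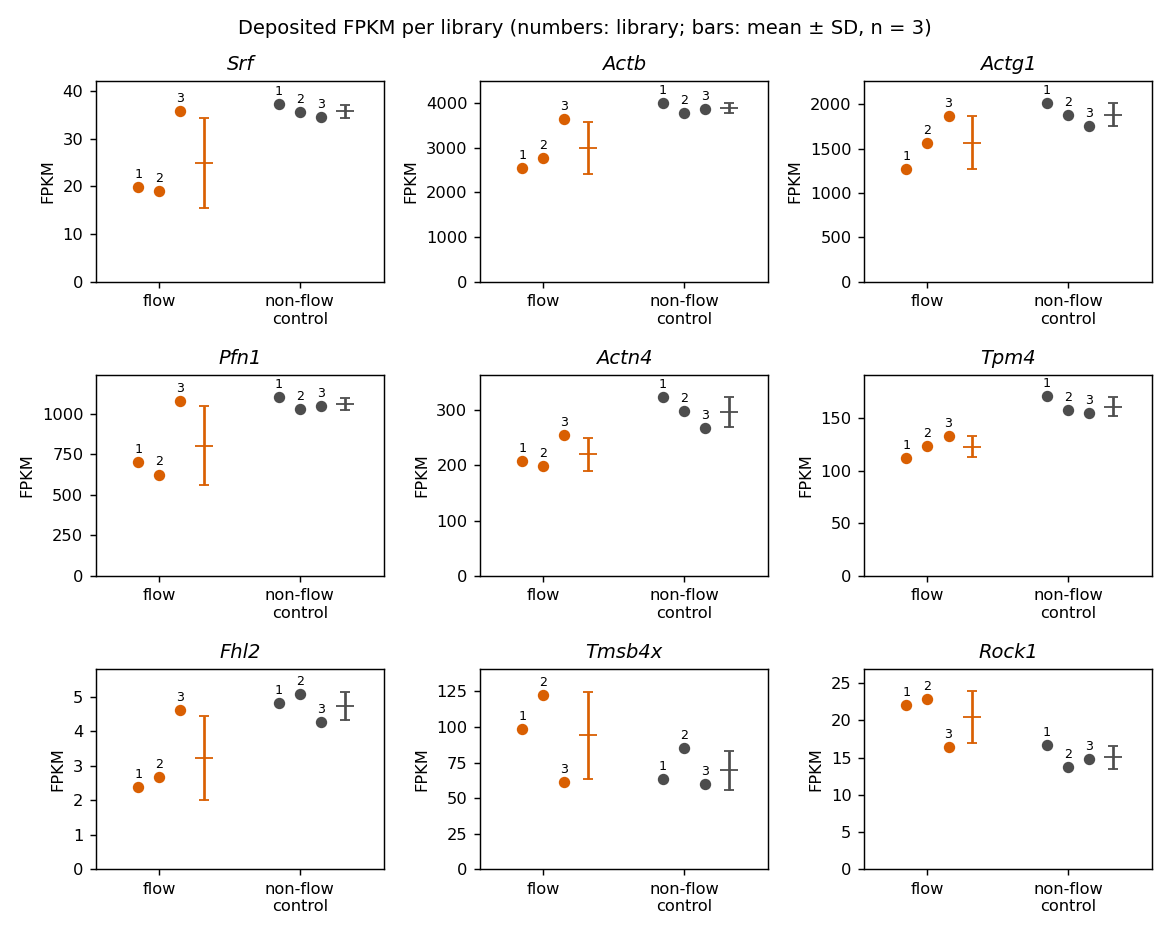
Deposited FPKM of 9 members in each library (points, numbered by library), flow in orange left of non-flow control in grey, with mean ± SD of 3 libraries beside the points; every axis starts at 0. In Srf, Actg1, Pfn1 and Fhl2 flow library 3 reaches the controls and flow libraries 1 and 2 do not, in Actb, Actn4 and Tpm4 all 3 flow libraries are below all controls, and in Tmsb4x and Rock1 flow libraries 1 and 2 are the highest of the 6.

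Tropomyosins, which wind along filaments and set which proteins bind there, included 2 isoforms, Tpm3 and Tpm4, in which flow library 3 was also below all controls. Tpm4 had 112, 124 and 133 FPKM in flow libraries, against 171, 158 and 155 FPKM in controls. All flow libraries were well below all controls. The means were 123 ± 10.2 FPKM with flow and 161 ± 8.74 FPKM without (SD, n = 3 each), and the log2 difference was −0.39 (SE 0.10; limma adjusted p = 0.559), with the smallest unadjusted p of any member. It was −0.28 with flow library 3 alone, and −0.40 (SE 0.09; limma adjusted p = 0.556) with the GC trend taken out, its GC content of 50.1% being close to the median of 50.6% over all tested protein-coding genes. In the other deposited table, however, the log2 difference of Tpm4 had the opposite sign, 0.19 (SE 0.14; limma adjusted p = 0.751). Of its 50-base stretches, 16.1% are shared with other genes.

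Tpm3 had 190.3, 247 and 212 FPKM in flow libraries, against 269, 266 and 267 FPKM in controls. The controls were nearly identical and all flow libraries were below them. The log2 difference of Tpm3 was −0.31 (SE 0.11; limma adjusted p = 0.559), −0.33 (SE 0.10) after removal of the GC trend, −0.34 with flow library 3 alone, and −0.58 (SE 0.14; adjusted p = 0.751) in the other deposited table. Shared stretches of 50 bases amounted to 17.0% for this gene. Tpm2 had 236, 219 and 309 FPKM with flow and 356, 274 and 309 FPKM without, with flow libraries 1 and 2 below the controls (log2 difference −0.30, SE 0.16, adjusted p = 0.560). With flow library 3 alone Tpm2 was at −0.01, and after removal of the GC trend at −0.12. Tpm1 had 298, 345 and 369 FPKM with flow and 378, 350.5 and 332 FPKM without, and the groups overlapped. Tpm1 made up 35.6%, 36.9% and 36.1% of summed tropomyosin FPKM in flow libraries, against 32.2%, 33.4% and 31.2% in controls, without overlap. The share of Tpm4 was 13.4%, 13.2% and 13.0% with flow and 14.6%, 15% and 14.6% without, also without overlap.

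In the calponin family, filament-binding proteins that include transgelins, Cnn2 and Tagln2 lay on opposite sides of the controls in flow libraries 1 and 2. Cnn2 (calponin 2), whose promoter has a CArG box, had 322, 342 and 409 FPKM in flow libraries, against 461, 447 and 403 FPKM in controls. Tagln2 (transgelin 2) had 327, 350.0 and 297 FPKM with flow, against 297, 303 and 292 FPKM without. In flow libraries 1 and 2 Cnn2 was thus below and Tagln2 above all controls, and in flow library 3 both were inside the controls. The log2 difference was −0.30 (SE 0.12; limma adjusted p = 0.559) for Cnn2 and 0.12 (SE 0.09; adjusted p = 0.628) for Tagln2. With the GC trend removed, Cnn2 was at −0.12, and Tagln2, whose transcript has 57.7% GC, at 0.32 (SE 0.14; limma adjusted p = 0.752). Without flow library 3 the GC-corrected value of Tagln2 was 0.49 (SE 0.08; adjusted p = 0.158). As a share of the summed family, Cnn2 was 43.1%, 44.2% and 51.2% in flow libraries and 54.1%, 53.4% and 51.7% in controls.

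Tagln (transgelin, SM22-alpha), the classical Srf target of smooth muscle, was scarce. It had 2.55, 1.38 and 2.55 FPKM in flow libraries, against 3.14, 2.47 and 2.39 FPKM in controls, and the groups overlapped (log2 difference −0.23, SE 0.22, limma adjusted p = 0.669). The 7 smooth muscle markers, of which 2 were tested and 0 called, summed to 18.8 to 25.8 FPKM in flow libraries and 23.9 to 28.9 FPKM in controls. Most of that sum was Smtn alone, with 18.1, 17.4 and 23.9 FPKM in flow libraries and 27.4, 22.3 and 24.7 FPKM in controls. The sum also holds Actg2, itself a member. The part of these markers in the result was not tested. Antisense genes overlap 67.9% of the exon bases of Tagln. The use of strand is not given in the sources used here, so reads of the strands cannot be told apart. Cnn3 (80.7 to 95.3 FPKM with flow, 82.0 to 90.8 FPKM without) overlapped between groups. Caldesmon, Cald1, which restrains myosin on tropomyosin-coated filaments, had 381, 415 and 328 FPKM with flow, against 346, 370.2 and 328 FPKM without. It was above the controls in flow libraries 1 and 2 only, with a log2 difference of 0.10, or 0.02 after removal of the GC trend and −0.08 with flow library 3 alone. Cnn1, the calponin of smooth muscle, was at or under 0.0801 FPKM with flow and 0.0255 FPKM without, near or below the value of 3 reads (0.0715 to 0.239 FPKM), so no difference was detectable at this depth.

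Myosin subunits overlapped between groups throughout. Non-muscle myosin heavy chain came almost wholly from Myh9, with 165, 197 and 193 FPKM in flow libraries and 233, 218 and 170.1 FPKM in controls (log2 difference −0.15, SE 0.15). Its share of the summed heavy chains was 99.75% to 99.97% in flow libraries and 99.92% to 99.96% in controls. Myh10 was between 0.0563 and 0.488 FPKM with flow and between 0.0652 and 0.177 FPKM without. The light chains Myl6 (407 to 504 FPKM with flow, 417 to 444 FPKM without) and Myl12a (489.7 to 522 FPKM with flow, 483 to 499 FPKM without) each had a log2 difference of 0.03. Of the summed light chains, Myl12a made up 48.8%, 55.9% and 53.4% in flow libraries and 52.1%, 53.8% and 52.2% in controls. The regulatory light chain Myl9, a Srf target in smooth muscle, was uneven among flow libraries, with 19.1, 5.42 and 11.9 FPKM, against 7.65, 11.8 and 7.09 FPKM in controls. Flow library 1 was the highest of the 6 and flow library 2 the lowest (log2 difference 0.30, SE 0.43, limma adjusted p = 0.778), and after removal of the GC trend the difference was 0.48. Mylk, the kinase that phosphorylates regulatory light chains, was at 0.455 to 0.594 FPKM with flow and 0.466 to 0.507 FPKM without.

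Of the crosslinkers, which bundle filaments or tie them to adhesions, Actn4 differed most. Actn4 (alpha-actinin 4) had 207, 199 and 254 FPKM in flow libraries, against 324, 299 and 269 FPKM in controls. All flow libraries lay below all controls, flow library 3 next to the lowest control. The means were 220.2 ± 30 FPKM with flow and 297 ± 27.5 FPKM without (SD, n = 3 each), and the log2 difference was −0.44 (SE 0.13; limma adjusted p = 0.559). It was −0.22 with flow library 3 alone and −0.28 (SE 0.09; limma adjusted p = 0.702) with the GC trend taken out. Its relative Actn1 (85.4 to 102 FPKM with flow, 89.5 to 111 FPKM without) overlapped between groups, with a log2 difference of −0.11. Filamin A, Flna, ranged from 342 to 414 FPKM with flow and from 319.9 to 434 FPKM without. The leukocyte plastin Lcp1 was at 0.149 to 0.663 FPKM with flow and 0.143 to 0.336 FPKM without. The leukocyte markers Ptprc and Itgam did not exceed 0.0142 FPKM in any library. The 7 measured markers of that list, of which 2 were tested and 0 called, summed to 6.07 to 6.19 FPKM with flow and 4.88 to 6.64 FPKM without. Nearly all of that sum came from Cd68 and Coro1a. Cd68 was at 1.88 to 2.65 FPKM with flow and 1.42 to 3.27 FPKM without. Coro1a had 3.95, 4.15 and 3.37 FPKM with flow and 3.11, 3.44 and 3.32 FPKM without.

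Proteins of actin turnover again differed among themselves. Profilin, Pfn1 (chr11:70651850-70654644, minus strand), which hands monomers to growing filaments, had 702, 626 and 1081 FPKM in flow libraries, against 1103, 1031 and 1049.8 FPKM in controls. The pattern was that of Srf, with flow libraries 1 and 2 far below every control and flow library 3 inside them. The log2 difference of Pfn1 was −0.44 (SE 0.21; limma adjusted p = 0.559), −0.68 (SE 0.08; adjusted p = 0.0695) without flow library 3, and 0.03 with flow library 3 alone. Its GC content is 57.9%, and with the GC trend removed the values were −0.24, and −0.37 (SE 0.08; limma adjusted p = 0.221) without flow library 3.

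Cofilin, Cfl1, which severs filaments, had 782, 753 and 874 FPKM in flow libraries, against 931, 888 and 920.2 FPKM in controls. All flow libraries were below all controls, but by little. The log2 difference of Cfl1 was −0.19 (SE 0.09; limma adjusted p = 0.559), −0.06 with flow library 3 alone and −0.12 after removal of the GC trend. In the other deposited table the groups overlapped, at 690 to 829 FPKM in flow columns and 804 to 887 FPKM in controls. Other genes share 23.0% of the 50-base stretches of Cfl1, and an antisense gene overlaps 16.5% of its exon bases. The thymosins hold monomers in reserve. Tmsb4x had 98.4, 122 and 61.4 FPKM with flow, against 63.6, 85.0 and 59.9 FPKM without. It was highest in flow libraries 1 and 2, while flow library 3 lay inside the controls. The log2 difference of Tmsb4x was 0.39 (SE 0.27; adjusted p = 0.612), 0.67 (adjusted p = 0.128) without flow library 3, −0.16 with flow library 3 alone, and 0.28 after removal of the GC trend. Tmsb10 had 213, 144 and 194 FPKM with flow and 192, 188 and 183 FPKM without, flow libraries lying on both sides of the controls. Tmsb4x was 31.6%, 46.0% and 24.0% of the summed thymosins with flow and 24.9%, 31.2% and 24.6% without.

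Among the signalling proteins, Rhoa, Rock1 and Rock2 were above all controls in flow libraries 1 and 2, and Rhob stood out in flow library 3. Rhob, an inducible small GTPase with an intronless gene, had 33.9, 22.7 and 79.5 FPKM in flow libraries, against 32.5, 33.2 and 33.3 FPKM in controls. The controls were within 1 FPKM of each other, flow library 1 was next to them, flow library 2 below and flow library 3 far above. Over all libraries the log2 difference of Rhob was 0.25 (SE 0.42; limma adjusted p = 0.814), and without flow library 3 it was −0.24. With flow library 3 as the only flow library it was 1.25 (SE 0.07; adjusted p = 0.0286), the only member called in that fit, which called 76 genes (0.636%) and assumes that the lone library varies as the controls do. Rhoa (196 to 240.2 FPKM with flow, 195 to 205 FPKM without) was above the controls in flow libraries 1 and 2, with a log2 difference of 0.16 (SE 0.10; adjusted p = 0.598), −0.03 with flow library 3 alone and 0.07 with the GC trend removed. Rhoc (264 to 281 FPKM with flow, 260.3 to 311 FPKM without) overlapped between groups.

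The kinases Rock1 and Rock2, which phosphorylate myosin light chain and its phosphatase, were higher in flow libraries 1 and 2. Rock1 had 22, 22.9 and 16.4 FPKM in flow libraries, against 16.7, 13.7 and 14.8 FPKM in controls. Rock2 had 37.0, 40.6 and 26.1 FPKM with flow, against 30.5, 29.3 and 26.9 FPKM without. Flow library 3 lay within the controls for Rock1 and just below all of them for Rock2. The log2 difference was 0.41 (SE 0.15; limma adjusted p = 0.559) for Rock1 and 0.23 for Rock2, and with flow library 3 alone it was 0.12 for Rock1 and −0.14 for Rock2. Their transcripts have the lowest GC content of the tested members, 38% and 40%, and after removal of the GC trend the log2 differences were 0.10 for Rock1 and −0.03 for Rock2, and 0.07 and 0.01 without flow library 3. The formin Diap1 (18 to 23.4 FPKM with flow, 20.7 to 23.5 FPKM without) and the Cdc42 effector Cdc42ep3 (3.50 to 5.60 FPKM with flow, 3.44 to 4.28 FPKM without) overlapped between groups.

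The order of the members by log2 difference followed GC content in part. Over the 36 tested members the Spearman correlation of the log2 difference with transcript GC content was −0.48, against −0.63 over all 10460 genes, a description over genes of the same libraries. Without flow library 3 it was −0.57 over the members and −0.69 over all genes. The members' median GC content was 53.4%, above the 50.6% of all genes. After removal of the trend, 0 members and 0 of all genes were called, and an unadjusted limma p under 0.05 remained for Tpm3, Tpm4 and Actn4 on the lower side, 3 of 36 members against 3.42% of all genes. It was found for 0 on the higher side, against 3.28%. Without flow library 3 and without the trend, 7 were on the lower side (Srf, Fhl2, Actb, Tpm3, Tpm4, Actn4 and Pfn1), against 5.70% of all genes. On the higher side were 3 (Tagln2, Tmsb4x and Rhoc), against 6.28%, and again 0 members were called, the smallest adjusted p being 0.158.

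**Figure D4:**
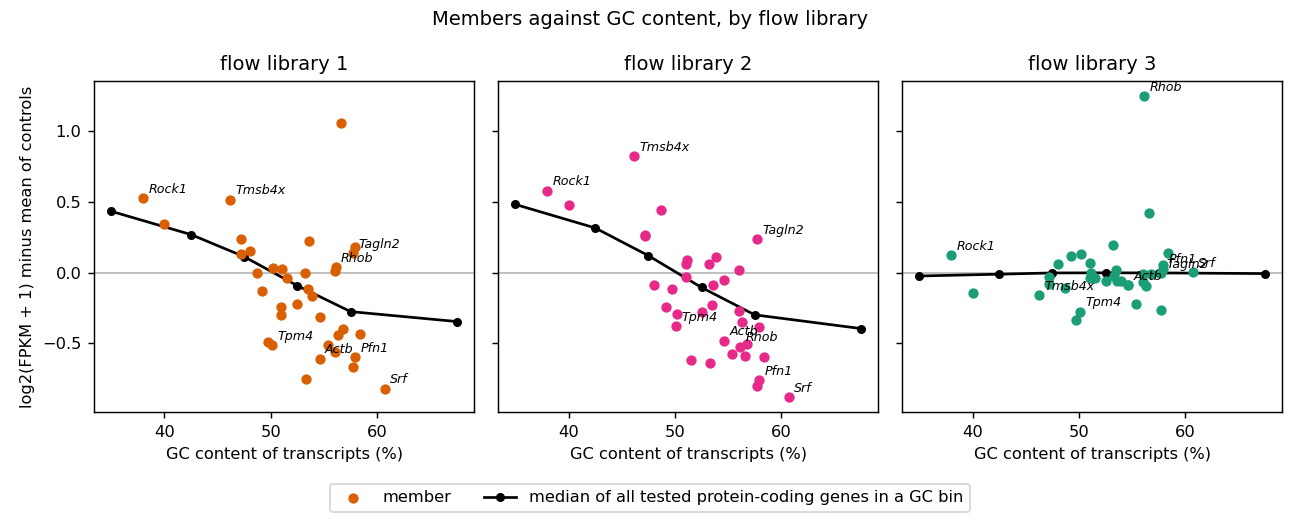
The 36 tested members in each flow library, with the GC content of their transcripts (%) on the horizontal axis and log2(FPKM + 1) minus the control mean on the vertical axis; the black line joins medians of all tested protein-coding genes in GC bins. In flow libraries 1 and 2 the line slopes down, to −0.35 and −0.39 in the bin of highest GC, with Srf and Pfn1 below it and Tagln2 and Tmsb4x above it; in flow library 3 the line is flat and Rhob is far above it.

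Members with a CArG box were compared with members without one as a description, with no test. The 7 tested members with a box had a median log2 difference of −0.30, with 5 below 0, and the 24 tested members with a window but no box had −0.05, with 15 below 0. Their median GC content was 56.3% and 51.8%. After removal of the GC trend the medians were −0.12 with a box and −0.02 without. With flow library 3 alone they were −0.03 and −0.02, and the distance between the medians was smaller in both. Without flow library 3 the medians were −0.41 with a box and −0.13 without, a somewhat wider distance. With the GC trend removed as well they were −0.17 and −0.01. Within the tested members with a box, Srf, Acta1, Fhl2, Cnn2 and Actg1 were below 0. The light chains Myl6 and Myl9, whose boxes are printed above with theirs, were at 0.03 and 0.30. Fhl1 also has a box but was too low to be tested. Its flow libraries all lay above all controls, though not in the other deposited table.

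Other genes of the same machinery were read from 6 lists with 95 measured and 79 tested genes, of which 0 were called by limma. An unadjusted p under 0.05 was found for 8 on the lower side (10.1%, against 4.82% of all genes) and 0 on the higher side (against 3.70%). Other Srf targets and cofactors held 4 of the 8, among 20 tested, with a median log2 difference of −0.22. Lima1 (eplin, which stabilises filaments) had 32.3, 33.2 and 35.7 FPKM in flow libraries, against 58.9, 49.1 and 56.0 FPKM in controls, so that all flow libraries were close to each other and far below the controls. The log2 difference of Lima1 was −0.68 (SE 0.10; limma adjusted p = 0.451), and −0.69 after removal of the GC trend. Tgfb1i1 (Hic-5, a focal adhesion protein) had 28.7, 33.3 and 38.7 FPKM with flow, against 52.9, 51.5 and 44.6 FPKM without (log2 difference −0.56, SE 0.14, adjusted p = 0.559), which was −0.39 with the GC trend removed. Ankrd1 had 7.24, 5.66 and 4.05 FPKM with flow, against 9.70, 8.62 and 8.63 FPKM without (log2 difference −0.61, SE 0.19, adjusted p = 0.559), which was −0.70 with the GC trend removed. For both, every flow library was below every control.

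The other lists described here stayed closer to 0. Of 17 tested genes for filament capping, severing and turnover, Capg (375, 345 and 422 FPKM with flow, 443, 491 and 453 FPKM without) and Cap1 (105, 122 and 137 FPKM with flow, 148, 149 and 149 FPKM without) had an unadjusted limma p under 0.05, both lower with flow, and Dstn (destrin; 154, 173 and 126 FPKM with flow, 129, 123 and 118 FPKM without), next by p, had the opposite sign. The Arp2/3 complex, which nucleates branched filaments, had 0 of 9 in either direction and a median of 0.09. For 5 of the 9, flow libraries 1 and 2 were both above every control, against 22.8% of all genes. Its genes with the smallest p were Arpc1b (439, 411 and 493 FPKM with flow, 527, 545 and 488 FPKM without), Arpc5l (69.5, 77.8 and 58.9 FPKM with flow, 52.1, 63.7 and 55.3 FPKM without) and Actr3 (157, 153 and 129 FPKM with flow, 130.2, 126 and 126 FPKM without). Arpc1b had a log2 difference of −0.22, and Arpc5l and Actr3 of 0.26 and 0.19. After removal of the GC trend these were −0.05, 0.22 and 0.10. Formins and nucleation promoters, 10 tested genes without the member Diap1, had 1 on the lower side. It was Wipf1 (8.56, 7.39 and 10.6 FPKM with flow, 10.9, 11.5 and 12.4 FPKM without). The formins Diap2 and Diap3, next by p, had log2 differences of 0.34 and 0.21, and 0.11 and 0.05 after removal of the GC trend. Other myosins had 0 of 11, with Myo1c, Myo9b and Myo1e at −0.32, −0.21 and −0.39. Other crosslinkers had 1 of 12, Palld (16.4, 11.2 and 18.9 FPKM with flow, 23.5, 20.9 and 21.9 FPKM without), followed by Rdx (radixin) at 0.37 and Ezr (ezrin) at −0.16.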

How the data were processed

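The authors deposited FPKM per gene and library, made per the submitters' processing notes with CASAVA 1.8.2, TopHat2 2.0.9 and Cufflinks 2.2.1 on mm10; the sources used here do not state annotation or strand use. The table whose 6 columns all name a library was tested; the other, with 2 unmatched flow columns and 22 repeated identifiers, served as an alternative.

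Genes averaging 1 FPKM or more were tested on the log2(FPKM + 1) scale, which understates changes of low genes. The moderated two-sided test of limma 3.58.1 (R 4.3.3; lmFit, then eBayes with a variance trend) was used, with Benjamini-Hochberg adjustment over all tested genes and a threshold of 0.05. Its p-values reflect only how much 3 cultures a group vary, and replicate numbers follow the order of deposition. An exact permutation test of 3 against 3 cannot go below p = 0.1. The log2 values of the libraries correlated at 0.896 to 0.926, and none were identical.

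Depth was read from the smallest steps of FPKM; 3 reads on 1 kb equalled 0.156 to 0.521 FPKM, covering counting error only. For the GC correction a lowess of log2 values on transcript GC content was subtracted in each library. Gene coordinates, GC content and shared 50-base stretches came from GENCODE M21, promoters from RefSeq GRCm38.p6. Scripts were tested on simulated data. The members, the lists, and the rule for naming genes (all members, and up to 3 of each list with the smallest p) were chosen with earlier results of these data known. Alternatives were other pseudocounts, filters, scalings, a replicate block and omitted libraries. The share of 1 gene family and 1 of the 7 lists are not reported here.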

Additional observations from a re-analysis of the deposited data

How the results depend on the processing

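The test as reported called 2 genes and 0 members. Called genes numbered 4 with a pseudocount of 0.1 FPKM, 4 without a filter, 76 with flow library 3 alone, 0 with protein-coding genes only, with or without removal of the GC trend, and 0 for that trend removed without flow library 3; rescaling to TPM without flow library 3 gave 19. The last 2 fits and the protein-coding one were added after the data were seen. Leaving out 1 library gave 3 to 14 called genes, always with 0 members (main 0), 1 to 12 members with p under 0.05 lower (main 6), 0 to 5 higher (main 1), 5 to 14 without overlap lower (main 5), 0 to 6 higher (main 0), and medians of −0.15 to −0.05. Member calls were 1 with flow library 3 alone (Rhob) and 1 with TPM without flow library 3 (Srf, −0.94, limma adjusted p = 0.0472). Members with p under 0.05 on the lower side were 3 with the GC trend removed (8.33%, against 3.42% of all genes). They were 1 in the other deposited table (2.94%, against 3.38%) and 14 with TPM without flow library 3 (38.9%, against 17.1%). On the higher side they were 2 without a filter (4.88%, against 2.83% of all genes) and 0 with the GC trend removed (against 3.28%). They were 3 with that trend removed without flow library 3 (8.33%, against 6.28%) and 4 with TPM without flow library 3 (11.1%, against 7.94%). Members without overlap on the lower side were 3 after quantile normalization (8.33%, against 6.63% of all genes) and 3 in the other table (8.82%, against 5.91%). Without flow library 3 they were 10 with the GC trend removed (27.8%, against 15.2%) and 18 with TPM (50.0%, against 28.6%). On the higher side they were 1 without a filter (2.44%, against 5.12% of all genes), 1 with TPM (2.78%, against 6.66%) and 1 after quantile normalization (2.78%, against 8.3%). There were 2 in the other table (5.88%, against 6.64%) and 3 with flow library 3 alone (8.33%, against 23.6%). Without flow library 3 there were 6 with the GC trend removed (16.7%, against 15.4%) and 4 with TPM (11.1%, against 16.1%). TPM without flow library 3 moved the members' median to −0.24 and the median of all genes to −0.10. Rhoc was at 0.26 with the GC trend removed without flow library 3, and Tpm4 at 0.19 in the other table, both reversed; the cause was not tested. The sign was the same in every alternative that tested the gene for 11 of 36 tested members (Acta1, Actb, Actg1, Actn4, Cfl1, Cnn2, Fhl2, Rock1, Tagln, Tpm2 and Tpm3). Acta1, Fhl2 and Tagln were tested in 20 alternatives, the rest of these in 21. Adjacent title numbers may pair the libraries, but their deviations correlated at only 0.04, 0.02 and 0.06 and no label gives shared days. With the replicate block, 1 gene and 0 members were called (smallest limma adjusted p of a member 0.423). At p under 0.05, 4 members were lower (11.1%, against 6.6% of all genes) and 1 higher (2.78%, against 5.14%). With the block and the GC trend removed, 2 genes and 0 members were called. There 5 members were lower (13.9%, against 6.37%) and 2 higher (5.56%, against 5.87%). Depth limits what can be said of Cnn1, Lcp1 and Myh10.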

Other observations

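Ctgf (connective tissue growth factor), a target shared by Srf and the Yap pathway, was the fourth gene of its list by p and is named here after its values were seen. It had 347, 228 and 146 FPKM in flow libraries, against 361, 419 and 407 FPKM in controls. All flow libraries were below all controls, with flow library 3 the lowest of the 6 (log2 difference −0.80, SE 0.30, limma adjusted p = 0.559). Cyr61, its relative, had 82.8, 57.3 and 326 FPKM with flow, against 95.8, 100 and 709 FPKM without, so that flow library 3 and control 3 were both far above the other libraries.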
